A study of Drosophila melanogaster with 33 samples.

Results

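The Drosophila circadian clock genes per, tim, Clk, cyc, vri, Pdp1, cry, cwo, dco and sgg were followed through RNA-seq libraries of fly brain and S2 cells and through lists of positions edited by Atx2-ADARcd fusions in brain. The genes were taken by name, with earlier results of these data known, and all 10 were found among the 16727 genes of the count files. RNA-seq had 12 libraries, 3 for each of 4 groups. The Atx2 RNAi brains carried elav-Gal4, which is active in neurons, UAS-Atx2-RNAi, and tub-Gal80ts, which holds Gal4 off in the cold. The control brains are labelled Elav Gal4, and the driver stock listed for the experiment also carries tub-Gal80ts. The methods give 1 scheme for the flies, controls not named apart: rearing at 18 °C, a move to 29 °C as adults of 1 day, 5 days there, and 10 to 12 pooled brains for each library. S2R+ cells, a hemocyte-like Drosophila line, were transfected with double-stranded RNA against GFP (mock) or against Atx2. TRIBE, in which an RNA-binding protein is fused to the catalytic domain of the editing enzyme ADAR and marks the mRNAs it meets with A-to-G changes, had 12 brain libraries, 2 each for Atx2 WT and for forms lacking the Lsm domain, the LsmAD domain, the mIDR or the cIDR, and for Lsm+LsmAD alone. All of these fusions were driven by elav-Gal4 with tub-Gal80ts in adult brain, by the same scheme of 18 °C, 29 °C from day 1 and 5 days, with 10 to 12 brains for each library. The hour of day at which brains were dissected is not given in the sources used here.

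The fly clock is a feedback loop. The bHLH-PAS proteins CLK and CYC bind E-boxes and activate per, tim, vri, Pdp1 and cwo, and PER and TIM return to the nucleus to inhibit CLK and CYC. VRI represses and PDP1 activates Clk, so that Clk mRNA, and cry mRNA with it, peaks at the opposite time of day from per, tim and vri mRNA. CRY is a blue-light receptor that leads to the degradation of TIM, CWO is a bHLH-Orange repressor that binds E-boxes, DCO (Doubletime) is the casein kinase that phosphorylates PER, and SGG is the GSK3 kinase that phosphorylates TIM. Atx2, with the protein TYF, is a known activator of per translation in pacemaker neurons, which is the reason for looking at these genes in libraries made to study Atx2. The clock also runs in glia, photoreceptors and fat body, which bulk RNA does not separate from neurons.

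The genes lie on chromosomes X, 2L, 3L and 3R of dm6, with coordinates of the Ensembl annotation on the same build. Of the activators, Clk (FBgn0023076) spans 3L:7763233-7775603 and cyc (FBgn0023094) spans 3L:19813770-19815938, both on the minus strand. The inhibitors are per (FBgn0003068), on the plus strand at X:2685580-2692780, and tim (FBgn0014396), on the minus strand at 2L:3493986-3508119. In the second loop, vri (FBgn0016076) spans 2L:5288944-5311223 on the plus strand and Pdp1 (FBgn0016694) spans 3L:7811458-7867369 on the minus strand, and cwo (FBgn0259938) lies on the plus strand at 3R:10388258-10400752. The light receptor cry (FBgn0025680) spans 3R:19212154-19215442 on the plus strand. The kinase genes are dco (FBgn0002413), at 3R:31054085-31061210 on the minus strand, and sgg (FBgn0003371), at X:2633952-2679553 on the plus strand. Exons of another gene on the same strand cover 11.8% of the exon bases of sgg (CR45197), 17.4% of those of cry and 2.15% of those of tim, so that reads there may have been left uncounted. The other 7 genes have no such overlap.

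Depth ran from 11169973 to 16108727 counts per library. Gal4 control brain replicate 1 stood apart, with 34.6% of its alignments in rows that name no gene, against 13.5% to 17.7% in the other 11 libraries. The study calls its replicates biological, without saying how cultures or cohorts were separated, and p-values measure the spread between these libraries. Atx2 itself (FBgn0041188, 3R:15408423-15417277) was at 287, 302 and 316 CPM (counts scaled to a common library size with TMM factors) in the control brains and at 201, 252 and 264 CPM in the RNAi brains. These groups did not overlap, and the log2 change of -0.34 (SE 0.12, edgeR quasi-likelihood test, adjusted p = 0.0584) did not pass the threshold of 0.05, whereas DESeq2 called it (-0.39, adjusted p = 0.0137). In S2 cells Atx2 was at 228, 226 and 232 CPM in the mock libraries and at 1002, 686 and 841 CPM in the libraries labelled S2 Atx2 RNAi, a log2 change of 1.88 (SE 0.085, edgeR adjusted p = 5.3e-11). At the level of counts this goes against the label, so no direction drawn here from those libraries is read as loss of Atx2 mRNA. Protein was not measured in these files, and whether reads of the transfected RNA are among the Atx2 counts was not tested.

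Markers of several cell types moved with Atx2 RNAi in brain. The summed level of 8 neuron markers was 18360 to 22420 CPM in the controls and 12000 to 13920 CPM in the RNAi brains, and that of 6 glia markers went from 7780 to 8810 CPM to 4990 to 5979 CPM, with 6 and 4 of them called lower. The neuron markers elav and fne and the glia markers repo and Gs2 were not called. Thus elav was at 875.7, 562.5 and 716.8 CPM in the controls and at 456.6, 733.8 and 659.8 CPM in the RNAi brains. For repo the values were 118.9, 128.7 and 143.8 CPM against 126.6, 125.3 and 125.9 CPM. The summed level of 6 fat body markers was 559 to 1599 CPM in the controls and 11770 to 26940 CPM in the RNAi brains, with 5 called higher and Fbp1 called lower. That of 8 photoreceptor markers went from 1257 to 1299 CPM to 1554 to 2061 CPM (4 called higher), that of 5 hemocyte markers from 365 to 452 CPM to 720 to 933 CPM (3 called higher) and that of 5 muscle markers from 265 to 293 CPM to 60.1 to 84.6 CPM (5 called lower). No marker on these lists was at 0 in every brain library. In bulk RNA, fewer cells of a type and less RNA per cell cannot be told apart, and the part of these shifts in the changes of clock genes was not tested.

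Within the control brain, the clock genes were spread over a wide range of levels. Per kb of merged exons, Pdp1 was highest, at 152 ± 16.5 CPM per kb (SD, n = 3), and Clk was lowest, at 2.85 ± 0.181 CPM per kb. The kinase genes sgg (90.4 ± 6.31) and dco (49.9 ± 3.86) followed Pdp1, and then came cry (42.4 ± 4.81), tim (29.3 ± 4.41), cyc (23.2 ± 1.97) and cwo (19.5 ± 2.32), all in CPM per kb (SD, n = 3). Although PER and TIM act together, their mRNAs differed in level: per was at 7.80 ± 1.45 CPM per kb, near vri (6.48 ± 0.680) and below the whole range of tim. Of neighbours in this order, dco and cry, cyc and cwo, and per and vri had overlapping ranges, and the other 6 pairs of neighbours did not. Among 9095 brain genes with a length, Pdp1 stood at percentile 94.5 and Clk at percentile 17.6. All 13 transcripts of Pdp1 are summed in this value. Per kb of the longest transcript, Pdp1 was at 268.5 and sgg at 225.8 CPM per kb, with the order of the 10 genes unchanged.

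**Figure D1:**
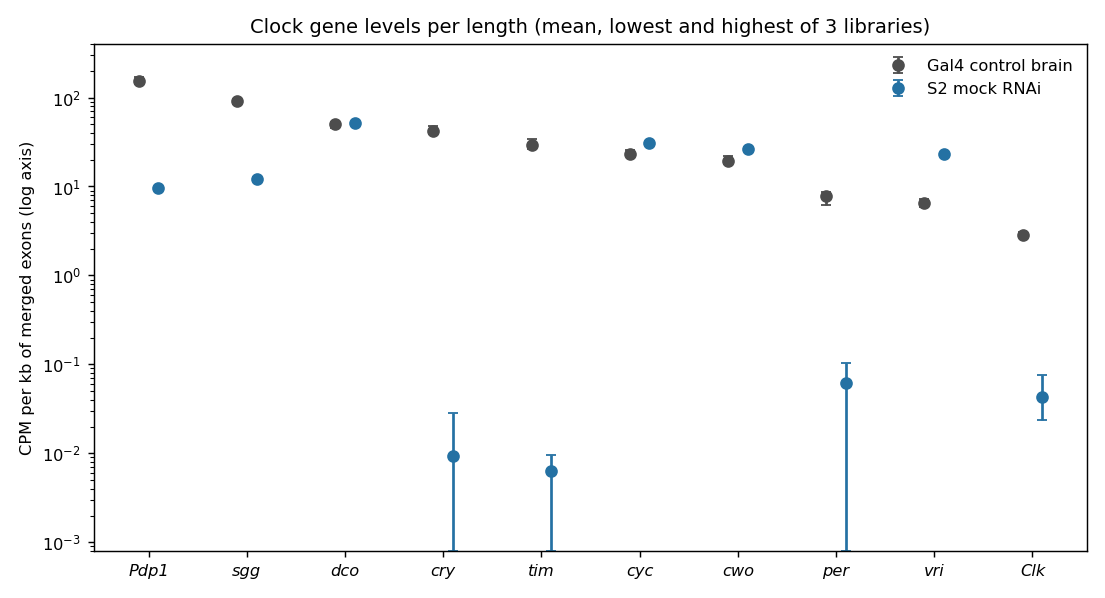
Mean level of each clock gene in CPM per kb of merged exons (log axis) in 3 Gal4 control brain and 3 S2 mock RNAi libraries, with lines from the lowest to the highest library; a lowest value of 0 is drawn at the foot of the axis. In brain the genes run from Pdp1 at 152 to Clk at 2.85, and in S2 cells cry, tim, per and Clk lie at or under 0.0625 while dco, cyc, cwo and vri lie at 23.4 or above.

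Of the 10 clock genes, 2 were lower in Atx2 RNAi brains, and both encode kinases. The dco mRNA was at 210, 185 and 202 CPM in the controls and at 144, 155 and 157 CPM in the RNAi brains. Every RNAi library was below every control library, with a log2 change of -0.39 (SE 0.092, edgeR adjusted p = 0.0135). The sgg mRNA was at 998, 893 and 935 CPM in the controls and at 570, 659 and 701 CPM in the RNAi brains, again without overlap, with a log2 change of -0.55 (SE 0.118, edgeR adjusted p = 0.00925). Both calls held when any library, Gal4 control brain replicate 1 included, was left out (edgeR adjusted p of 0.0185 to 0.0449 for dco and 0.0185 to 0.0332 for sgg). The share of 2 in 10 is near the background, since 18.6% of the 9197 genes tested were called lower. Groups that did not overlap, with the RNAi libraries lower, were likewise those of dco and sgg alone among the clock genes, against 25.4% of genes tested, and no clock gene had all RNAi libraries above the controls, against 32.3%. Summed neuron and glia markers were lower in the same libraries, though elav, fne, repo and Gs2 were not called, as given above.

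No clock gene was called higher in the RNAi brains (edgeR, 0 of 10, with 23.1% of all genes tested called higher), and DESeq2 also called 0, against 19.8% of all genes. At an unadjusted p under 0.05, edgeR gave 1, vri, against 28.2% of all genes, and lower there were again dco and sgg alone, against 23.3%. The background itself leans with the scaling: edgeR called 1712 genes lower and 2120 higher with TMM factors but 935 lower and 3119 higher with library size alone, where the median log2 change of all genes was 0.27 in place of 0.06. Under that scaling dco, at -0.18 (SE 0.082), was no longer called (adjusted p = 0.109, edgeR), sgg, at -0.34, still was, and vri, at 2.26, was called higher (edgeR adjusted p = 0.0396), against 33.9% of all genes.

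None of the other 8 genes was called, and in 5 of them the RNAi libraries fell on both sides of the controls. The mRNA of vri was at 25.0, 23.4 and 28.4 CPM in the controls and at 189, 109 and 14.2 CPM in RNAi replicates 1, 2 and 3. Replicates 1 and 2 were thus above every control, and replicate 3 was below every control. The per mRNA showed the same arrangement, at 22.8, 32.9 and 32.7 CPM in the controls and 68.5, 39.7 and 21.3 CPM in the RNAi brains. So did tim, at 199, 158 and 158 CPM in the controls and 332, 303 and 95.6 CPM in the RNAi brains.

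For Clk and cry, whose mRNAs are known to peak opposite to per and tim, the same libraries were arranged the other way round. Clk was at 11.4, 10.6 and 10.2 CPM in the controls and at 6.73, 9.25 and 17.6 CPM in RNAi replicates 1, 2 and 3. The mRNA of cry was at 60.3, 65.3 and 75.6 CPM in the controls and at 45.6, 53.4 and 131 CPM in the RNAi brains. In both genes replicates 1 and 2 were below every control, and replicate 3 was above every control.

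The 3 remaining genes differed less between RNAi libraries. The E-box repressor gene cwo was at 92.8, 78.5 and 76.7 CPM in the controls and at 112, 77.0 and 64.5 CPM in the RNAi brains, with replicate 1 above, replicate 2 within and replicate 3 below the control range. Pdp1 was at 1704, 1478 and 1422 CPM in the controls and at 1471, 1308 and 1159 CPM in the RNAi brains, which were all below the control mean and overlapped the controls through replicate 1. The activator gene cyc was at 29.7, 30.2 and 34.5 CPM in the controls and at 34.9, 34.6 and 31.0 CPM in the RNAi brains, and these ranges overlapped as well. In the RNAi group per, tim, vri, Pdp1, cwo and cyc were each highest in replicate 1 and lowest in replicate 3, an order shared by 16.7% of all genes tested, and Clk, cry, dco and sgg had the reverse order, shared by 16.1%.

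**Figure D2:**
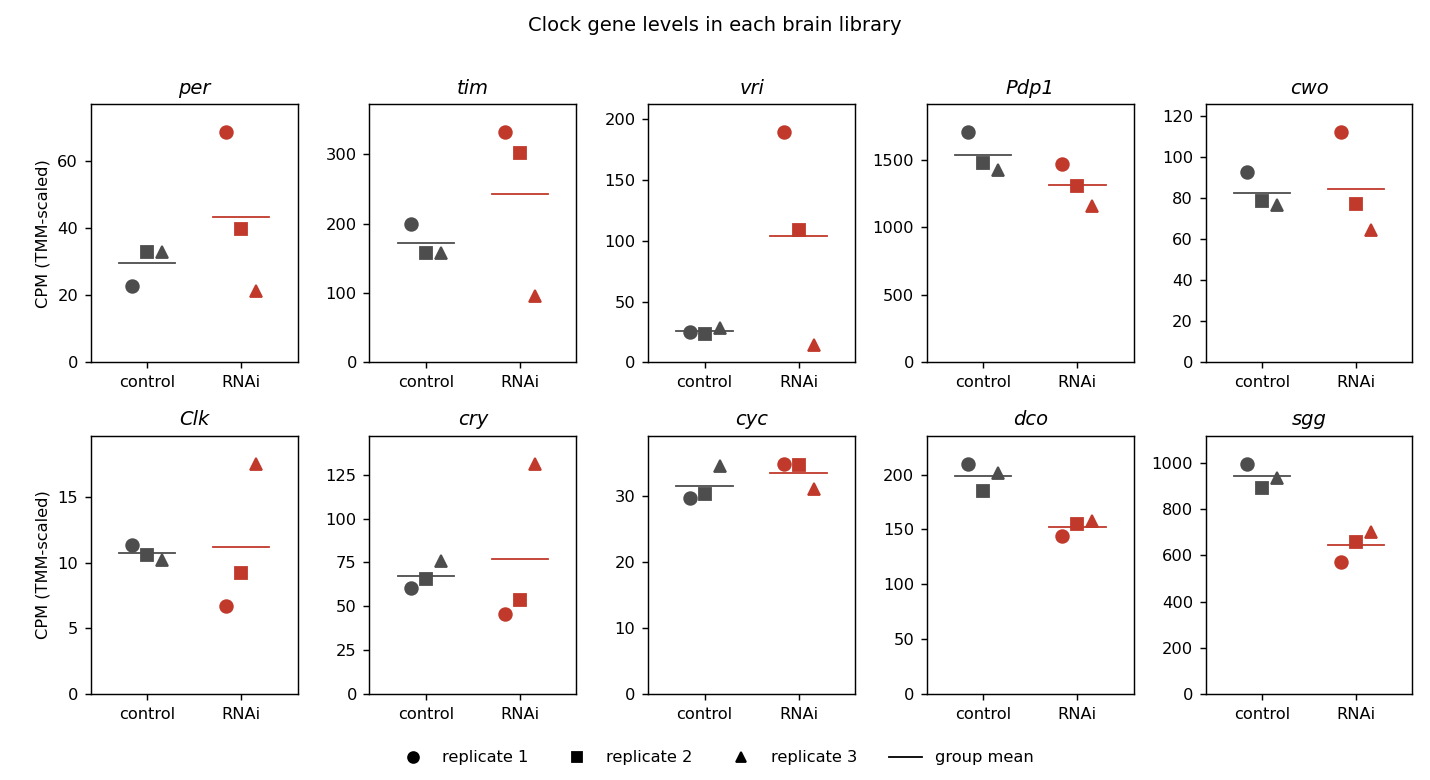
Level of each clock gene in CPM (TMM-scaled, axes from 0) in brain libraries, 3 of Gal4 control and 3 of Atx2 RNAi; symbols mark the replicate and lines the group means. RNAi replicate 3 lies below all controls for per, tim and vri (14.2 CPM) and above all controls for Clk and cry (131 CPM), opposite to replicates 1 and 2, whereas all RNAi libraries of dco and sgg lie below the controls.

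As fitted over 3 libraries against 3, these arrangements gave large standard errors and no calls. The log2 change was 2.02 for vri (SE 0.735, edgeR adjusted p = 0.0589), 0.55 for per (SE 0.378, edgeR adjusted p = 0.271) and 0.50 for tim (SE 0.401, edgeR adjusted p = 0.337). It was 0.19 for cry (SE 0.371, edgeR adjusted p = 0.697) and 0.061 for Clk (SE 0.324, edgeR adjusted p = 0.894). The 95% intervals were wide, from 0.58 to 3.46 for vri, from -0.19 to 1.29 for per and from -0.57 to 0.70 for Clk. The values of the others were -0.23 for Pdp1 (SE 0.138), 0.089 for cyc (SE 0.109) and 0.034 for cwo (SE 0.199).

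Several of these values turned on RNAi replicate 3. Without it, vri was called higher at a log2 change of 2.54 (SE 0.237, edgeR adjusted p = 0.00176) and tim at 0.89 (SE 0.145, edgeR adjusted p = 0.00863), when 15.4% of all genes were called higher. In the same fit per was at 0.88 (edgeR adjusted p = 0.0506), and Clk and cry changed sign, to -0.42 and -0.44, without a call. Leaving out RNAi replicate 1 in place of replicate 3 gave 1.27 for vri (edgeR adjusted p = 0.227) and 0.22 for tim (edgeR adjusted p = 0.736).

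The spread of these genes between replicates was unlike that of most genes in the RNAi group and ordinary in the controls. On log2(CPM + 0.5), the highest minus the lowest RNAi library was 3.69 for vri, 1.79 for tim, 1.66 for per, 1.52 for cry, 1.32 for Clk and 0.79 for cwo, against a median of 0.26 over the 9197 genes tested. These values stood at percentiles 99.9, 99.3, 99.2, 98.9, 98.5 and 94.1 of all genes. The ranges of cyc (0.17), dco (0.13), sgg (0.30) and Pdp1 (0.34) stood between percentiles 18.5 and 66.5. In the Gal4 control group every clock gene stood between percentile 13.1 (Clk) and percentile 69.4 (per), where the median range of all genes was 0.36. The clock genes were read in the same 3 libraries, so their percentiles are no independent observations.

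**Figure D3:**
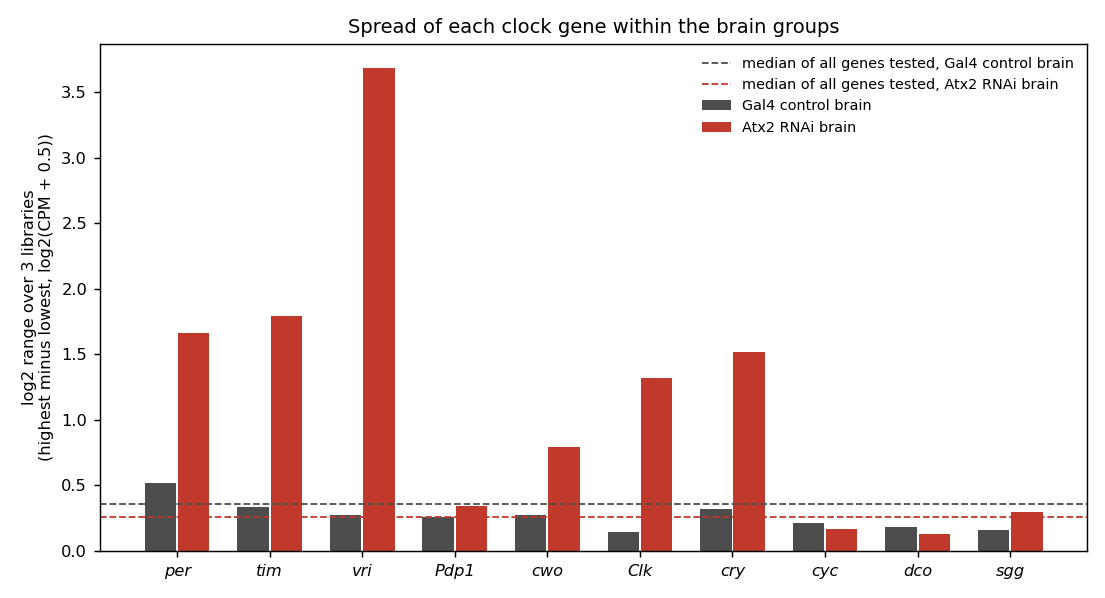
Range of each clock gene over the 3 libraries of a brain group, as the highest minus the lowest log2(CPM + 0.5), with dashed lines at the median of all genes tested in each group. The bars of vri (3.69), tim, per, cry and Clk stand far above the RNAi median of 0.26, while those of cyc, dco and sgg lie near it.

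A count of this arrangement was made after the values had been seen, so it describes these libraries and was given no test. Every RNAi brain library lay outside the control range, with libraries on both sides of it, for 5 of 10 clock genes (per, tim, Clk, vri and cry) and for 1.99% of all genes tested. The count was 5 without Gal4 control brain replicate 1, when 6.87% of all genes met the rule, and 2 (tim and vri) of 10 with library size alone, when 2.14% did. In S2 cells the count was 0 of 6, against 6.66% of all genes. Ratios of raw counts within a library need no scaling. The ratio of vri to Clk counts was 2.20, 2.21 and 2.78 in the controls and 28.1, 11.8 and 0.810 in RNAi replicates 1, 2 and 3. That of tim to cry was 3.30, 2.43 and 2.09 in the controls and 7.29, 5.67 and 0.728 in the RNAi brains, and that of per to cry was 0.378, 0.504 and 0.433 against 1.5, 0.743 and 0.162. In all 3 ratios, RNAi replicates 1 and 2 were above and replicate 3 was below every control. These pairs of genes were chosen after their values were seen. For vri to Clk, an exact permutation of mean log2 ratios between control and RNAi brains gave p = 0.4. The same permutation gave p = 0.9 for tim to cry and p = 0.7 for per to cry, with 0.1 the smallest possible. It compares group means, which libraries on both sides of the controls leave close, so it cannot decide on that arrangement.

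Fat body markers moved in the same libraries. Yp1, a yolk protein gene of the fat body, was at 44.5, 2.91 and 61.9 CPM in the controls and at 7080, 6022 and 1517 CPM in RNAi replicates 1, 2 and 3. Yp2 and Yp3, also yolk protein genes, were likewise lowest of the RNAi brains in replicate 3. The other fat body markers did not share one order: Lsp2 was at 1822, 1372 and 3331 CPM and Rfabg at 3376, 4669 and 3638 CPM in RNAi replicates 1, 2 and 3, and Fbp1 was under 1 CPM in all of them. Summed photoreceptor markers were highest in replicate 3, at 1554, 1656 and 2061 CPM, and summed neuron markers were at 12000, 13920 and 13550 CPM. The part of cell type, and of the hour of dissection, in the spread of the clock genes was not tested.

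In S2 cells only some of the loop was expressed. Over the 3 mock libraries, per had 14 counts in all, Clk 9, tim 2 and cry 1, and in the libraries labelled S2 Atx2 RNAi these totals were 26, 13, 2 and 1. These genes did not pass the filter on low counts and were not tested there. The highest of them in any mock library, per, reached 0.105 CPM per kb. Per kb of merged exons, dco was the highest clock gene in the mock libraries, at 51.7 ± 0.369 CPM per kb (SD, n = 3), and cyc (31.1 ± 0.211), cwo (26.7 ± 0.785), vri (23.4 ± 0.346), sgg (12 ± 0.691) and Pdp1 (9.71 ± 0.172) followed with no overlap between neighbours. This order rests on the length used: per kb of the longest transcript sgg was at 30.1, vri at 27.3 and Pdp1 at 17.2 CPM per kb, which places sgg and vri above cwo. Photoreceptor markers trp and Arr1 and the fat body marker Lsp2 were at 0 in every mock library, and hemocyte markers summed to 591 to 608 CPM.

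The 6 expressed clock genes hardly moved between the S2 groups. The cwo mRNA was at 166, 162 and 154 CPM in the mock libraries and at 144, 151 and 137 CPM in the libraries labelled S2 Atx2 RNAi. It was the 1 gene called lower, at a log2 change of -0.16 (SE 0.044, edgeR adjusted p = 0.0126), when 14.7% of the 7567 genes tested were called lower. The call was lost without mock replicate 1, mock replicate 2 or labelled RNAi replicate 1 (edgeR adjusted p up to 0.0779). No gene was called higher (edgeR, 0 of 6, against 14.4% of all genes), at an unadjusted p under 0.05 the count was also 0 (against 20.7%), and DESeq2 called 0 (against 685 of 7567 genes). The count of lower genes at an unadjusted p under 0.05 was 1, against 20.1%.

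The partner of Clk, cyc, was at 59.6, 60.4 and 59.1 CPM in the mock libraries and at 52.6, 58.7 and 56.1 CPM in the labelled RNAi libraries, a log2 change of -0.097 (SE 0.051, edgeR adjusted p = 0.163). For dco the values were 291, 295 and 290 CPM against 282, 287 and 268 CPM, a log2 change of -0.065 (SE 0.038, edgeR adjusted p = 0.21). The labelled RNAi libraries of cyc, cwo and dco, 3 of 6 genes, were all below the mock libraries, an arrangement found in 22.0% of all genes. The groups of the other 3 genes overlapped: vri was at 129 to 134 CPM in the mock and 129 to 132 CPM in the labelled RNAi libraries (log2 change -0.0087, SE 0.039), Pdp1 at 137 to 143 and 141 to 142 CPM (0.024, SE 0.038), and sgg at 171 to 188 and 165 to 176 CPM (-0.048, SE 0.043). Their 95% intervals lay within -0.13 and 0.10 on the log2 scale.

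**Figure D4:**
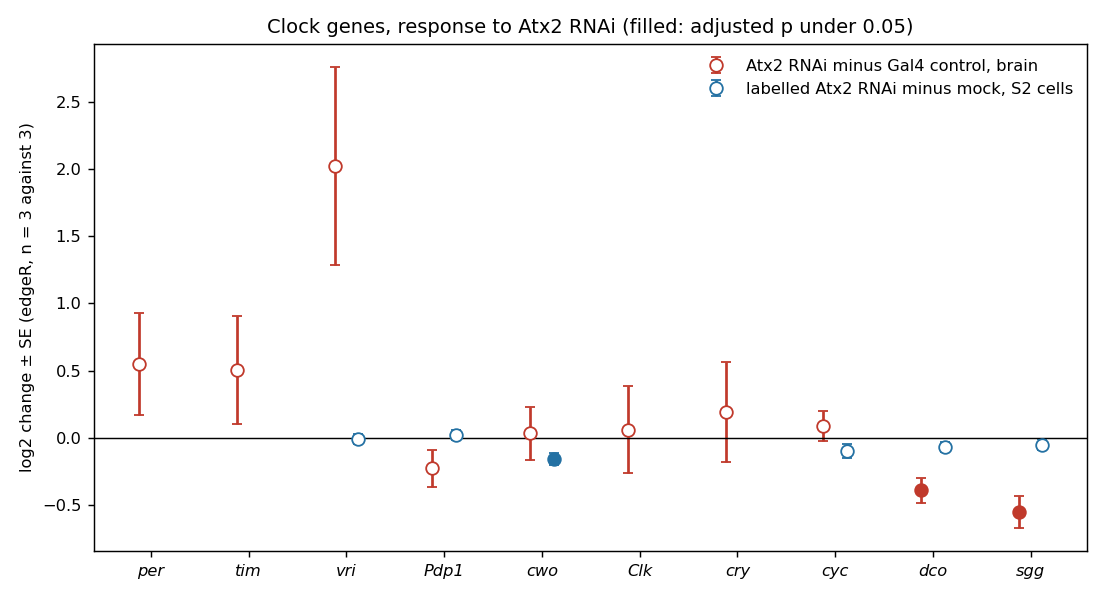
Log2 change (edgeR, with SE, 3 libraries against 3) of each clock gene for Atx2 RNAi against Gal4 control brain and for the libraries labelled S2 Atx2 RNAi against mock; filled points have an adjusted p under 0.05, and per, tim, Clk and cry were not tested in S2 cells. In brain only dco (-0.39) and sgg (-0.55) are filled, and vri has the largest change (2.02) with the largest SE; in S2 cells only cwo (-0.16) is filled.

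The changes in brain and in S2 cells were compared by the interaction of tissue and RNAi. All 10 clock genes were in this fit. The genes per, tim, Clk and cry, with few counts in S2 cells, were not called, and values are given for the 6 expressed in both. The change in brain was below that in S2 cells by 0.50 on the log2 scale for sgg (difference -0.50, SE 0.129, edgeR adjusted p = 0.0138) and by 0.32 for dco (difference -0.32, SE 0.102, edgeR adjusted p = 0.0365). These 2 calls, of the 10 clock genes in the fit, compare with 8.84% of all genes, and edgeR called 0 in the other direction, against 16.6%. DESeq2 called 3 lower, with Pdp1 (-0.37, adjusted p = 0.027) beside sgg and dco, against 15.5% of all genes, and 0 higher, against 14.1%. With library size alone dco (-0.13) was not called by edgeR. The call for sgg held without each of the 12 libraries, and that for dco was lost in 8 of the 12 fits (without Gal4 control brain replicate 3, RNAi brain replicate 1 or 3, any mock library, or labelled RNAi replicate 1 or 2), over which its edgeR adjusted p ran from 0.0155 to 0.0944. For vri the difference was 2.04 (SE 0.798, edgeR adjusted p = 0.0824), and it was called, at 2.56 (edgeR adjusted p = 5.6e-05), without RNAi brain replicate 3. For Pdp1 (-0.25, SE 0.144), cwo (0.19, SE 0.227) and cyc (0.19, SE 0.112) the edgeR adjusted p lay above the threshold. The CPM of Atx2 was lower in the RNAi brains, without an edgeR call, and higher in the libraries labelled S2 Atx2 RNAi. Whether reads of transfected RNA are among the latter was not tested, so that the S2 response is that of the libraries as labelled.

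Control brain and mock S2 cells differed far more than the RNAi groups did. Of the clock genes 6 were higher in brain (Pdp1, sgg, per, Clk, tim and cry), where 45.5% of the 9221 genes tested were called higher. The log2 difference was 4.02 for Pdp1 (SE 0.105, edgeR adjusted p = 1.4e-08), 2.96 for sgg (SE 0.088, edgeR adjusted p = 2.8e-08), 6.96 for per (SE 0.454, edgeR adjusted p = 2.3e-06) and 6.10 for Clk (SE 0.32, edgeR adjusted p = 6.3e-07). In scaled counts per is thus 130-fold higher (95% exact interval 77.4 to 239, counting error only) and Clk 72.1-fold higher (37.6 to 159). For tim and cry, with 2 and 1 counts in the mock libraries, the ratios were 5153 (1426 to 42560) and 4106 (736 to 162200), and both were called.

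The genes with no such gap were those that S2 cells express at the level of brain or above. The mRNA of vri was lower in brain by 1.80 on the log2 scale (difference -1.80, SE 0.088, edgeR adjusted p = 4.2e-07), that of cwo by 0.40 (-0.40, SE 0.09, edgeR adjusted p = 0.00324) and that of cyc by 0.36 (-0.36, SE 0.082, edgeR adjusted p = 0.00334), when 42.7% of all genes were called lower. The groups of these 9 genes did not overlap, which held for 44.1% of all genes with brain lower and 46.1% with brain higher. For dco the difference was 0.0040 (95% interval -0.14 to 0.15, edgeR adjusted p = 0.961). Small differences of this comparison rest on the scaling: with library size alone the median of all genes moved from 0.070 to -0.58 and dco to -0.65, and DESeq2 placed dco at 0.21 with a call and did not call cyc (-0.15) or cwo (-0.19). Tissue and preparation cannot be told apart here.

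In TRIBE, a position was listed where 20 or more reads covered it and 15% or more were edited, and a common position is one listed in both libraries of a form. Of the 10 clock genes, only Pdp1 had a common position in Atx2 WT, and no clock gene had one in any of the 5 altered forms. The position lies at 3L:7812612, in the 3′UTR of 2 of the 13 Pdp1 transcripts (3L:7811458-7816325), 1154 bases from the 3′ end of the gene. It was edited at 17.7% and 15.75% in the Atx2 WT libraries (16.7% ± 1.38, SD, n = 2), close to the limit of the list. Both Atx2 WT libraries had more read pairs than every library of the altered forms. The part of this depth in the absence of common positions from the altered forms was not tested. The share of 1 in 10 compares with 2.69% of all 9197 brain-tested genes. In the altered forms that share was 4.13% for the Lsm deletion, 1.85% for the LsmAD deletion, 1.72% for the mIDR deletion, 0.424% for the cIDR deletion and 0.37% for Lsm+LsmAD.

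Single libraries listed 3 more values. The same Pdp1 position was edited at 15.2% in replicate 1 of the LsmAD deletion. Another Pdp1 position, 3L:7831810, in the 5′UTR of 2 transcripts, was at 15% in replicate 2 of the mIDR deletion, and a cry position, 3R:19215369, in the 3′UTR 73 bases from the end of the gene, was at 15.4% in replicate 1 of the cIDR deletion. Counting a position in either library, 1 of 10 clock genes was listed in Atx2 WT (5.35% of all genes), the LsmAD deletion (5.48%), the mIDR deletion (4.93%) and the cIDR deletion (1.4%), and 0 in the Lsm deletion (10.7%) and Lsm+LsmAD (1.23%). None was edited above 17.7%, and at a limit of 20% no clock gene remained in any form. The lists hold no read numbers, so single percents carry no interval.

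For per, tim, Clk, cyc, vri, cwo, dco and sgg no position was listed in any of the 12 libraries, and none was listed within their spans under another gene's name. This holds for per, whose translation Atx2 is known to promote in pacemaker neurons. In the control RNA-seq libraries per was at percentile 34.1 of brain genes. In those libraries sgg was at percentile 90.35 and dco at percentile 81.5, where Pdp1 was at percentile 94.5. The part of level or coverage in the absence of listed positions was not tested. The read number at positions below the limits of the lists is unknown. The libraries listed between 87 (Lsm+LsmAD) and 940 (Lsm deletion) positions. Read pairs were fewest in replicate 2 of the LsmAD deletion and in both libraries of the Lsm deletion, although the Lsm deletion libraries listed the most positions. Form and sequencing cannot be told apart between Atx2 WT and the altered forms. The Atx2 WT libraries were sequenced without strand and the others with it, and the Atx2 WT libraries had the most read pairs.

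Genes that act on the clock proteins were described by 6 lists. These lists were chosen with earlier results of these data known. Their counts beside those of all genes, here and below, therefore describe the lists and are no test of them. Of 10 clock kinases and phosphatases tested in brain, 6 were lower and 0 higher (CkIalpha, nmo, wdb, flw, Pp1-87B and Pp1alpha-96A), against 18.6% and 23.1% of all genes, with a median log2 change of -0.32 against 0.06 over all genes. The largest fall was that of nmo, a kinase of the clock proteins, from 591, 449 and 462 CPM to 296, 297 and 295 CPM (log2 change -0.76, SE 0.125, edgeR adjusted p = 0.00359). The casein kinase 2 genes CkIIalpha (-0.041) and CkIIbeta (-0.026) did not pass the test. With library size alone 4 of 10 were lower, against 10.2% of all genes, and without Gal4 control brain replicate 1 the count was 5, against 1816 of 9376 genes.

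Of 8 genes of clock input and output, 6 were lower and 0 higher, against the same 18.6% and 23.1% of all genes, with a median of -0.74. They included the TIM-acting zona pellucida gene qsm (-1.71, SE 0.345), the opsin gene Rh7 (-0.80, SE 0.101), the channel gene na (-0.67, SE 0.134) and its partner unc79 (-0.91, SE 0.163), and Pdfr, the receptor of PDF (-0.50, SE 0.123). The largest fall was that of e, which encodes a beta-alanyl amine synthase of glia and cuticle, from 86.3, 487 and 218 CPM to 57.9, 56.6 and 88.3 CPM (-1.97, SE 0.55, edgeR adjusted p = 0.0244). The groups overlapped for e, and the call was lost without RNAi replicate 1 or RNAi replicate 2 (edgeR adjusted p up to 0.0986). Summed neuron and glia markers fell in the same libraries, with medians of -0.72 and -0.66, though elav, fne, repo and Gs2 were not called.

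The peptides of clock neurons went the other way, with 6 of 10 higher and 0 lower, against 23.1% and 18.6% of all genes, and a median log2 change of 0.44. They were Pdf (0.88, SE 0.155), the main output peptide of the ventral lateral neurons, and NPF, Dh31, Dh44, Trissin and AstC. The largest rise was that of Trissin, from 35.0, 32.5 and 29.5 CPM to 69.5, 53.3 and 62.8 CPM (0.94, SE 0.128, edgeR adjusted p = 0.00177). NPF rose from 64.1, 44.5 and 38.3 CPM to 77.7, 75.7 and 75.5 CPM (0.64, SE 0.18, edgeR adjusted p = 0.0249) and Dh31 from 205, 153 and 143 CPM to 233, 224 and 238 CPM (0.47, SE 0.142, edgeR adjusted p = 0.0308), and both calls were lost in 5 of 6 fits without 1 library (without Gal4 control brain replicate 2 or 3 or any RNAi library). The RNAi libraries of NPF and of Dh31 lay close together, at 75.5 to 77.7 CPM and 224 to 238 CPM, where those of vri lay far apart.

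The 3 other lists were mixed, where edgeR called 18.6% of all genes lower and 23.1% higher, and their counts moved with the library and the method. Without Gal4 control brain replicate 1, 1 turnover gene and 0 post-transcriptional regulators were lower, against 1816 of 9376 genes tested. DESeq2 called 4 cofactors lower, against 23.2% of all genes. In protein turnover, 2 of 6 genes were lower and 0 higher, slmb (-0.32), the F-box protein that takes PER to degradation, and the ubiquitin ligase gene ctrip, from 598, 452 and 556 CPM to 255, 408 and 376 CPM (-0.63, SE 0.192, edgeR adjusted p = 0.0332), whose call was lost in 4 of 6 fits (without Gal4 control brain replicate 1 or 3, or RNAi replicate 1 or 3). Of 6 transcription cofactors, Mef2 alone was lower, from 395, 311 and 347 CPM to 175, 226 and 208 CPM (-0.79, SE 0.134, edgeR adjusted p = 0.00388), and 0 were higher. Of 7 post-transcriptional regulators 2 were lower (Not1 and gw) and 2 higher (pAbp and me31B). The partner of Atx2 on per mRNA, tyf, was at -0.50 (SE 0.185, edgeR adjusted p = 0.0629), and Lsm12, listed as CG15735, was at -0.014 (SE 0.102). The gene of the poly(A)-binding protein, pAbp, which Atx2 contacts, rose from 1866, 1950 and 1696 CPM to 2872, 2530 and 2829 CPM (0.58, SE 0.124, edgeR adjusted p = 0.00911), and Not1, the scaffold of the CCR4-NOT deadenylase, fell from 816, 598 and 617 CPM to 330, 512 and 503 CPM (-0.59, SE 0.2, edgeR adjusted p = 0.0464). The call of Not1 was lost without any library but Gal4 control brain replicate 2, in 5 of 6 fits.

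**Figure D5:**
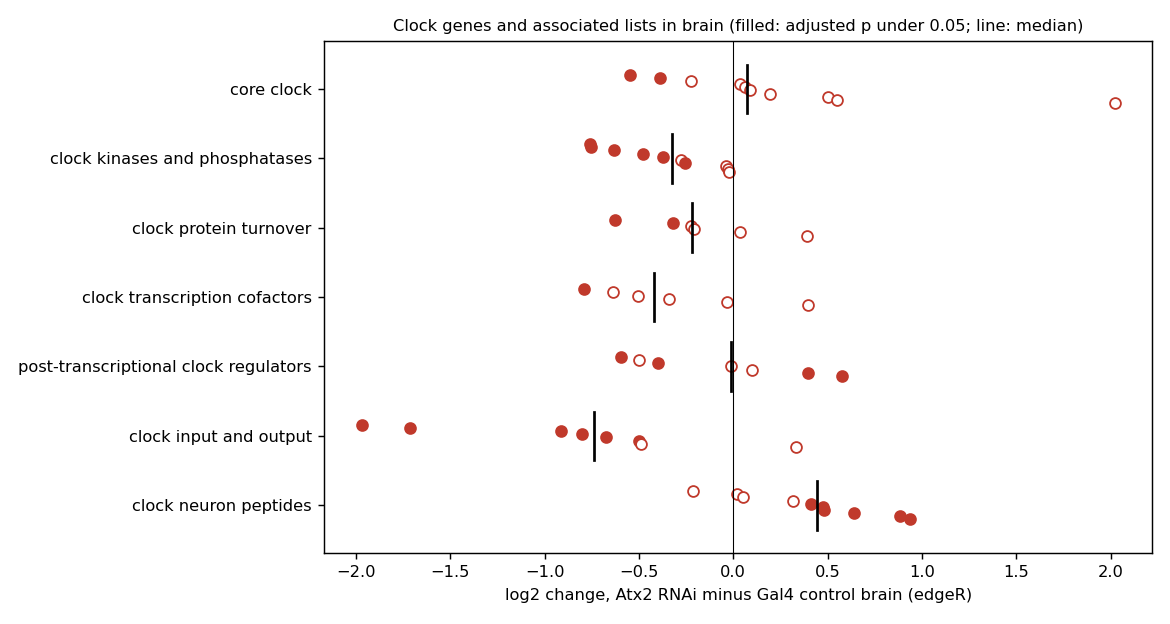
Log2 change (edgeR, Atx2 RNAi minus Gal4 control brain) of each tested gene of the clock and of 6 associated lists, 1 point per gene; filled points have an adjusted p under 0.05 and a line marks the median of the list. The lists of kinases and phosphatases (median -0.32) and of input and output (median -0.74) lie to the left, the peptides of clock neurons (median 0.44) to the right, and the clock genes spread from -0.55 to 2.02.

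In S2 cells 33 of the 47 genes of these lists were tested, and 6 were lower and 2 higher, against 14.7% and 14.4% of all genes. The log2 changes of those called ran from -0.30 to 0.27. The largest falls were those of nocte, a gene of clock entrainment by temperature, from 2148, 2137 and 2130 CPM to 1782, 1900 and 1536 CPM (log2 change -0.30, SE 0.054, edgeR adjusted p = 0.00065), the chromatin remodeler gene kis (-0.27, SE 0.08, edgeR adjusted p = 0.0175), the ion transport peptide gene ITP (-0.24, SE 0.048) and the phosphatase subunit gene wdb (-0.23, SE 0.045). Those that rose were Bdbt (0.27, SE 0.061), whose protein binds DCO, and CG15735 (0.25, SE 0.049). Of these, kis lost its call without mock replicate 1 or mock replicate 3 (edgeR adjusted p up to 0.0707) and in DESeq2 (-0.27, adjusted p = 0.212). The cofactor genes nej and brm were also called lower.

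Of the 47 genes of the associated lists, 6 had a common TRIBE position, all of them in Atx2 WT (2.69% of all genes) and in the Lsm deletion (4.13%), and 5 of these are peptides. NPF had 3 common positions in its 3′UTR, the most edited of which, 3R:16611268, was at 55.1% and 56.9% in Atx2 WT, 66.7% and 63.8% in the Lsm deletion, 67.9% and 55.7% in the LsmAD deletion, 66.2% and 41.8% in the mIDR deletion and 17.5% and 17.95% in the cIDR deletion. Its edit in the cIDR deletion was thus below that of every library of the other 4 forms. For sNPF, 2 common positions were listed in each of Atx2 WT, the Lsm deletion and the mIDR deletion, and 1 in the LsmAD deletion. The 3′UTR of sNPF was edited at 2L:20056019 at 48.4% and 45.1% in Atx2 WT and 55.4% and 48.1% in the Lsm deletion, and that of Trissin at 3R:15484787 at 35.9% and 38.9% and at 22.3% and 16.0%. Dh31 was edited at 2L:8492202 in the 3′UTR at 18.55% and 21.25% and at 19.25% and 17.7% in the same forms, and ITP at 2R:24558545 in the 3′UTR at 15.9% and 16.3% and at 26.7% and 21.1%. The phosphatase gene Pp1alpha-96A had its common position in the CDS, at 3R:24520385, edited at 18.2% and 17.8% in Atx2 WT and at 30.4% and 28.9% in the Lsm deletion. Of these genes NPF, Dh31 and Trissin were higher in the RNAi brains, Pp1alpha-96A was lower (-0.48, SE 0.09, edgeR adjusted p = 0.00567), and sNPF (0.018, SE 0.122) and ITP (-0.21, SE 0.135) did not pass the test.

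The genes most like per over the 6 brain libraries, by Pearson's correlation of log2(CPM + 0.5) among 9196 other tested genes, were opm (0.979), Ate1 (0.975), nesd (0.973), CG13318 (0.964) and CG16700 (0.962). The same 6 libraries enter every value, and no test was made. Ate1, an arginyltransferase gene, was at 42.2, 48.6 and 47.0 CPM in the controls and at 54.6, 48.9 and 43.3 CPM in the RNAi brains, a narrower span than that of per. Among the clock genes, vri was closest to per (0.91, rank 22), followed by tim (0.80), and Clk was among the genes farthest from it (-0.91, rank 9181).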

How the data were processed

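The clock genes and the associated and marker lists were chosen with earlier results of these data known. Counts of 12 RNA-seq libraries and edit percents of 12 brain TRIBE libraries were used; 9 of 33 samples had no file used here. Per the methods, the authors aligned reads to dm6 with STAR, and HTSeq then gave the deposited counts (reverse strand, no normalization), with an annotation not given in the sources used here. Edit percents were deposited as lists that the authors derived from TopHat2 alignments to dm6 after removing positions of control brains, at 20 or more reads and 15% or more edited.

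Rows naming no gene (13.5% to 34.6% of alignments) were left out. The tests used edgeR (4.0.16, R 4.3.3; TMM factors, filterByExpr with a minimum of 10 counts, quasi-likelihood test, Benjamini-Hochberg adjustment over all genes tested, threshold 0.05), each comparison with its own groups. DESeq2 1.42.0, 2 other scalings, 2 other filters, a block on replicate number and the omission of single libraries were alternatives. Replicates were distinct libraries in all 12 pairs compared, with a chi-square per degree of freedom of 24.0 to 64.4 in brain and 1.28 to 6.10 in S2 cells. S2 mock replicates 1 and 2, at 1.28, thus differed little beyond counting noise. Separate cultures are not shown by these values, and S2 p-values rest on this small spread. On simulated counts with a dispersion of 0.02 and 200 genes changed 2-fold, the step recovered 91% among 9109 brain genes with 8 false calls, and 96.5% among 7528 S2 genes with 18. These rates do not cover smaller changes or genes with a wider spread. Levels per kb used merged exons of Ensembl release 115 (BDGP6.54), in which 98.7% of gene names were matched. Likeness and spread used log2(CPM + 0.5). Exact intervals are at 95% and cover counting error only. Gene names were Ubpy for Usp8, Bdbt for CG17282, CG15735 for Lsm12, CG13936 for CNMa and Rfabg for apolpp. Genes named were all 10 clock genes, Atx2, the called gene with the largest rise and fall of each associated list in brain and in S2 cells, associated genes with a common TRIBE position, and the 5 genes most like per; others were named after their values were seen. No sequences are shown because no genome sequence was used here. Tables and figures were made in Python (3.11.15) with pandas (2.3.3), numpy (2.4.6), matplotlib (3.10.9) and scipy (1.17.1).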

Additional observations from a re-analysis of the deposited data

Results flagged for a closer look

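In 3 genes the change with RNAi differed between brain and S2 cells by the test of the difference itself (the interaction of tissue and RNAi, edgeR). The brain change minus the S2 change, on the log2 scale, was -0.32 for dco (SE 0.102, edgeR adjusted p = 0.0365), -0.50 for sgg (SE 0.129, edgeR adjusted p = 0.0138) and -2.22 for Atx2 (SE 0.184, edgeR adjusted p = 1.1e-05). The call for dco was lost in 8 of 12 fits without 1 library, with library size alone (edgeR adjusted p = 0.282) and with no filter on low counts (edgeR adjusted p = 0.101), and that for sgg held in these. For dco and sgg every RNAi brain library was below every control, with log2 differences from the control mean of -0.34 to -0.47 and -0.43 to -0.72, and summed neuron markers were lower in the same brains. The difference for Atx2 comes from libraries labelled S2 Atx2 RNAi with more Atx2 counts than the mock libraries (30003 against 9450 over 3 libraries each) and brains with a lower CPM. The part of cell type or of transfected RNA in these values was not tested.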

How the results depend on the processing

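In brain, library size alone left 1 clock gene called lower (sgg) and 1 higher (vri), and fits without 1 library gave 0 to 2 higher. In S2 cells such fits gave 0 to 1 lower. For the difference between the brain and S2 responses, library size alone gave 1 lower and 1 higher (cyc), no filter on low counts gave 1 lower, and fits without 1 library gave 1 to 2 lower and 0 to 1 higher. DESeq2 called 1 clock gene lower in control brain than in mock S2 cells, against 3571 of 9221 genes. Atx2 WT had 0 clock genes with a common position at an edit of at least 20% or 30%, and the LsmAD, mIDR and cIDR deletions each had 1 when either library, or replicate 1, 2 and 1 alone, was enough. The count of genes with RNAi libraries on both sides of the controls, whose alternatives were chosen after seeing the data, was 2 in brain with library size alone and 0 to 1 in S2 cells without 1 mock library. Values near 0 changed sign. In brain, Clk ran from -0.42 to 0.33, cry from -0.44 to 0.47, cwo from -0.22 to 0.20 and sNPF from -0.064 to 0.13 without 1 library, DESeq2 gave -0.028 for cwo and -0.041 for sNPF, and library size alone gave 0.00020 for ITP. In S2 cells, vri was at 0.023 with upper-quartile scaling, 0.0045 with library size alone and -0.020 to 0.0063 without 1 library, and the difference of responses of cwo ran from -0.053 to 0.36. Between control brain and mock cells, dco was at -0.43 with upper-quartile scaling, -0.65 with library size alone, -0.081 with no filter and -0.036 to 0.048 without 1 library. Replicate numbers did not pair the libraries, since the correlations of same-numbered deviations were -0.21 to -0.064 in brain and -0.071 to 0.050 in S2 cells. With the replicate block, dco (-0.39, edgeR adjusted p = 0.0481) and sgg (-0.55, edgeR adjusted p = 0.0397) stayed called in brain, 0 clock genes were called for the difference of responses (edgeR adjusted p = 0.117 for dco and 0.0674 for sgg), Clk was at -0.043 and cwo at -0.00033, and calls over all brain genes went from 1712 lower and 2120 higher to 1210 and 1641. Depth limits per, tim, Clk and cry in S2 cells, where 1 to 14 counts were found over 3 mock libraries.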
